A study of Mus musculus with 18 samples.

Results

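The genes described here are the 8 DYRK and HIPK kinases Dyrk1a, Dyrk1b, Dyrk2, Dyrk3, Dyrk4, Hipk1, Hipk2 and Hipk3, chosen by name from 35275 Ensembl gene identifiers measured by RNA sequencing in regulatory T cells (Treg). All 8 identifiers were found, and 6 of them reached the level at which a gene was tested. The cells were CD4-enriched, YFP-sorted cells of male mice aged 6 to 8 weeks, and every mouse, controls included, carried the Foxp3-YFP-cre allele. The 6 groups had 3 libraries each. Wild type carried the cre allele and no floxed gene, and the other 5 groups added a floxed allele of Mef2c, Mef2d, HDAC1, HDAC2 or Dyrk1, so that a deletion was directed to cells that express Foxp3. The label Dyrk1 does not say whether Dyrk1a or Dyrk1b was floxed, and the growth protocol, which lists the same floxed genes, also speaks of mice that lack Rcor1. The labels give no strain, clone or pool. The series text calls the 3 replicates of a group independent.

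DYRK and HIPK kinases belong to the CMGC branch of protein kinases, as do the cyclin-dependent and MAP kinases. A DYRK phosphorylates a tyrosine of its own activation loop once, while it is being made, and from then on acts on serine and threonine in other proteins, with no further activating step needed. In lymphocytes DYRK kinases are known for phosphorylating NFAT, which sends that T cell receptor-driven factor out of the nucleus, and for phosphorylating D-type cyclins and the MuvB subunit LIN52, steps that favour cell cycle exit. HIPK kinases are nuclear, bind homeodomain proteins and are known as partners of p53 and of transcriptional corepressors.

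Depth, recovered from the steps of the deposited values, was 15.92 to 24.09 M reads per library. Levels are in FPKM, fragments per kilobase of gene and M reads. The lineage factor Foxp3 lay between 82.5 and 117.7 FPKM over the 18 libraries. Markers of other cells were present too. The mean log2(FPKM + 1) over 9 B cell genes was 4.98 in Dyrk1 replicate 1, 3.88 in Mef2d replicate 1 and 3.40 in Mef2c replicate 1, against 1.51 to 2.20 in wild type. Of these 9 genes, 5 to 9 reached 1 FPKM in a library and 0 were at 0. Summed levels of 7 plasma cell genes were 2033 to 6130 FPKM with the HDAC1 label and 3449 to 10650 with HDAC2, against 533.2 to 1633 in wild type. In Dyrk1 replicate 1 the summed levels of 10 myeloid and dendritic cell genes (499.8 FPKM) and of 8 CD8 T and NK cell genes (133) were also above the wild-type highest (197.3 and 56.99). So were the myeloid and dendritic sums of HDAC1 replicate 2 (331.6), Mef2d replicate 1 (318.7) and Mef2c replicate 1 (240.3). The CD8 T and NK sums of HDAC2 replicate 2 (84.04) and HDAC1 replicate 2 (64.16) were above it too. Summed levels of 6 erythroid genes were 25.58 to 388.6 FPKM in wild type, highest in replicate 3. They were 91.45 to 262.3 with HDAC1, 43.55 to 303.9 with HDAC2, 6.603 to 41.66 with Dyrk1, 15.08 to 52.5 with Mef2c and 13.24 to 55.71 with Mef2d. The part of these cells in the results was not tested. In bulk RNA, fewer cells of a type and less RNA per cell cannot be told apart.

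The 8 kinases spanned a wide range of RNA levels, with Dyrk2 first as deposited and Dyrk3 and Dyrk4 last in every group. In wild type, Dyrk2 averaged 29.8 ± 2.03 FPKM (SD, n = 3 here and for every group mean), Dyrk1a 27.68 ± 1.46, Hipk1 22.83 ± 0.569, Hipk3 17.61 ± 1.81, Dyrk1b 7.001 ± 0.466 and Hipk2 6.443 ± 0.305. Dyrk3 and Dyrk4 were at 0.4323 ± 0.117 and 0.1707 ± 0.0653 FPKM. The ranges of Dyrk2 and Dyrk1a overlapped in wild type, as did those of Dyrk1b and Hipk2, although within each of the 3 libraries Dyrk2 was above Dyrk1a and Dyrk1b above Hipk2. The mean of Hipk1 passed that of Dyrk1a with the HDAC2 (32.14 and 29.35 FPKM), Mef2c (31.98 and 29.96) and Mef2d (32.91 and 30.91) labels, and the mean of Hipk2 passed that of Dyrk1b with HDAC1 (10.22 and 8.471) and HDAC2 (8.679 and 7.411). Dyrk2 stood first in 17 of 18 libraries and Dyrk1a in the other one, Dyrk1 replicate 1. The place of Dyrk2 rests on the gene length behind its FPKM. The deposited Dyrk2 values return whole reads for a length of 2137 bases, whereas the longest Dyrk2 transcript in the GENCODE M21 annotation has 6129. At that length the wild-type mean would be 10.4 FPKM, below Dyrk1a, Hipk1 and Hipk3. For the other 7 genes the length that returns whole reads is that of their longest annotated transcript, such as Dyrk1a-202 at 5759 bases and Dyrk1b-201 at 2534.

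**Figure D1:**
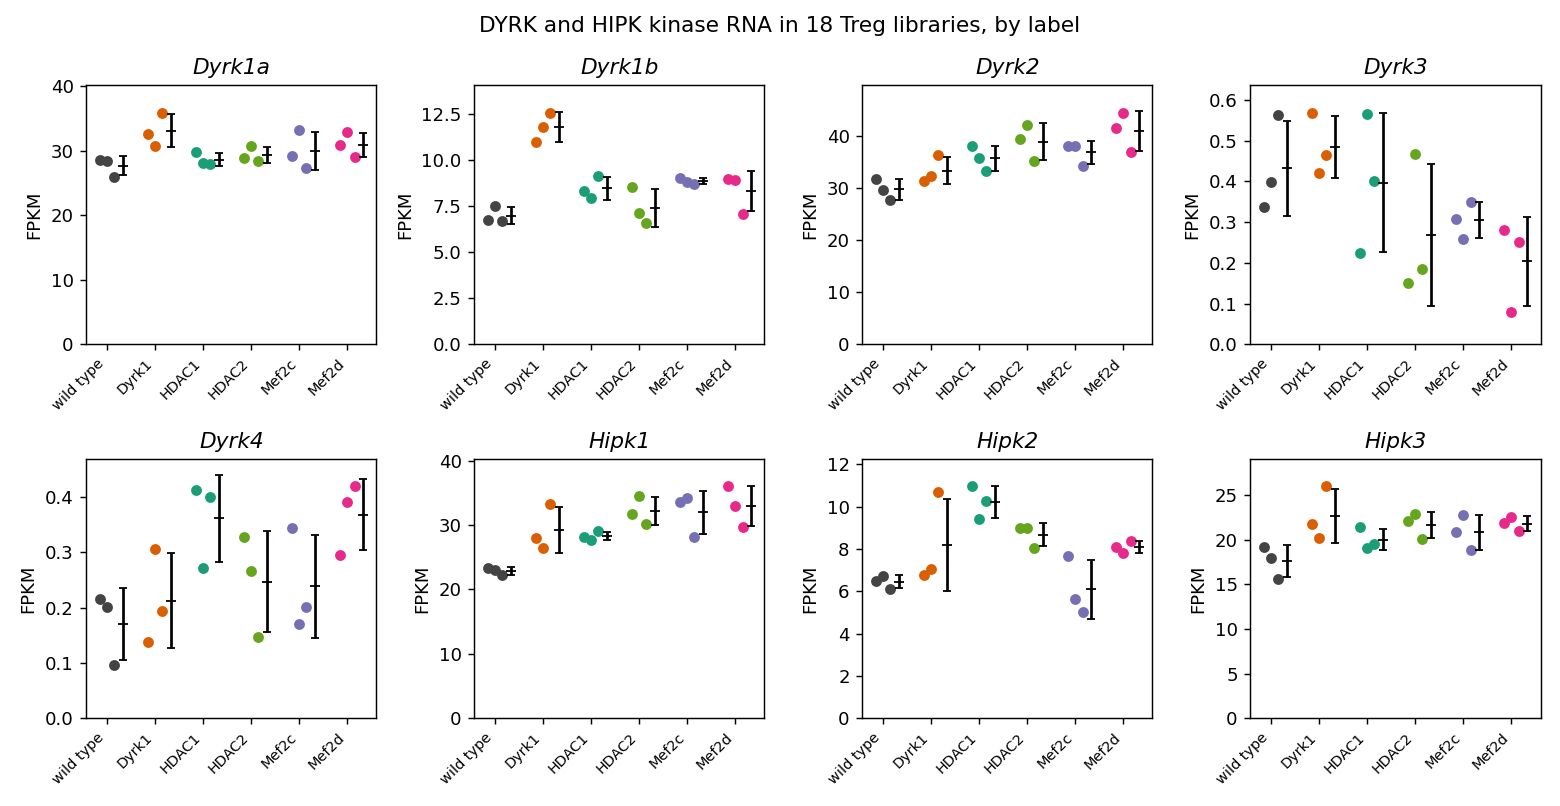
FPKM of each kinase (y axis, each panel on its own scale from 0) in the 3 libraries of each labelled group (points), with the group mean and SD beside them (black). Dyrk1b is highest in the 3 Dyrk1-labelled libraries, at 11.01 to 12.59 FPKM, and the 3 wild-type values of Hipk1, at 22.19 to 23.29 FPKM, lie below all 15 others.

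Dyrk1b was the member that set the Dyrk1-labelled libraries apart. It encodes a kinase, also called MIRK, known for holding cells in quiescence, and lies on chromosome 7 at 28179469 to 28187294 of mm10 (ENSMUSG00000002409). Its levels were 11.01, 11.84 and 12.59 FPKM in the Dyrk1-labelled libraries and 6.738, 7.538 and 6.727 in wild type. All 3 Dyrk1-labelled values were above the other 15 libraries, where the highest was 9.154 FPKM, in HDAC1 replicate 3. The share of all genes tested with this pattern was not computed, so how common it is cannot be said. The log2 difference from wild type on the log2(FPKM + 1) scale was 0.68 (SE 0.10, limma adjusted p 0.000679), a ratio of mean FPKM of 1.69. Against the mean of the other 4 deletion groups, which shares the Dyrk1-labelled libraries with the comparison above, it was 0.47 (SE 0.07, limma adjusted p 0.000397), with 8.274 FPKM as the mean of those 12 libraries. The exact two-sided permutation test of that second difference gave p = 0.0022, the smallest that its 455 arrangements allow. It treats the 12 libraries of 4 deletions as exchangeable, and its p follows from the lack of overlap given above. Both calls were kept in every alternative run, 16 and 26 in number, and removing the trends of the libraries on transcript length and GC left log2 differences of 0.70 and 0.50. With the Mef2c label Dyrk1b was at 9.045, 8.835 and 8.719 FPKM, above wild type without overlap (log2 0.30, SE 0.10, limma adjusted p 0.0385), a call lost in 9 of 16 alternatives. The other 3 labels gave log2 differences from wild type of 0.07 to 0.24 that did not pass. Recovered reads of Dyrk1b were 316 to 653 per library.

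Dyrk1b starts just downstream of Fbl, which encodes the nucleolar methyltransferase fibrillarin and is transcribed from the same strand. Fbl was read at 149.1 to 230.2 FPKM, far above Dyrk1b. Its mean was 171.2 FPKM in Dyrk1-labelled libraries and 202.7 in wild type, a log2 difference of -0.24 (SE 0.10, limma adjusted p 0.0944) that did not pass and was opposite in sign to that of Dyrk1b. The 177 bases between the annotated end of Fbl and the first annotated start of Dyrk1b (GRCm38.p6 from RefSeq, chr7:28179270-28179446, plus strand) are shown because this stretch lies before the member with the largest Dyrk1-labelled difference. Capitals mark matches to an E-box and to the NFAT core.

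Dyrk1b upstream: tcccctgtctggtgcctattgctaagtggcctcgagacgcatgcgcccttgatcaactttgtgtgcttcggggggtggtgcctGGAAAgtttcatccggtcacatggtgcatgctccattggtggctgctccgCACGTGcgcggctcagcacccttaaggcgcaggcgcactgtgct

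On both strands it held 1 match to the E-box CACGTG, which 4.2% of 32851 RefSeq promoter windows of the same length and place hold, and 1 match to the NFAT core GGAAA, which 43.9% hold. It held 0 matches to the MuvB-bound CHR motif TTTGAA (11.7% of windows) and 0 to the MEF2 motif (2.2%). The 2 matches do not overlap. A match describes letters only, and binding was not measured.

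Dyrk1a RNA was not lower in the Dyrk1-labelled libraries. This kinase, on chromosome 16 at 94570010 to 94695517 (ENSMUSG00000022897), is the dosage-sensitive DYRK studied in Down syndrome. Its levels were 32.62, 30.82 and 35.91 FPKM in Dyrk1-labelled libraries and 28.63, 28.4 and 25.99 in wild type. The groups did not overlap, but Mef2c replicate 2, at 33.24 FPKM, and Mef2d replicates 1 and 2, at 30.84 and 32.87, reached the Dyrk1-labelled range. The log2 difference from wild type was 0.25 (SE 0.08, limma adjusted p 0.0352), and that from the other 4 deletion groups, 0.15 (SE 0.06), missed the threshold at an adjusted p of 0.0835. The call against wild type was lost in 9 of 16 alternatives, among them removal of length and GC trends (log2 0.13, adjusted p 0.183) and leaving out any single wild-type library (log2 0.21 to 0.27) or Dyrk1 replicate 3 (log2 0.19). In the other 4 comparisons with wild type the log2 difference of Dyrk1a was 0.05 to 0.15 and did not pass, and with those trends removed it ran from -0.10 to 0.02. Whole-gene FPKM cannot separate a floxed exon from the rest of a gene, so neither DYRK1 gene checks the deletion.

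Read within each library, the ratio of Dyrk1b to Dyrk1a FPKM was 0.337, 0.384 and 0.35 in Dyrk1-labelled libraries, and 0.235, 0.265 and 0.259 in wild type. Group means were 0.357 ± 0.0241 for the Dyrk1 label, 0.253 ± 0.0158 for wild type, 0.297 ± 0.0267 for HDAC1, 0.253 ± 0.0362 for HDAC2, 0.298 ± 0.0281 for Mef2c and 0.27 ± 0.0237 for Mef2d. The 3 Dyrk1-labelled ratios were the highest of the 18, followed by 0.327 in HDAC1 replicate 3. Dyrk1b thus gained on Dyrk1a within the same libraries. The ratio is a description and was not tested.

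**Figure D2:**
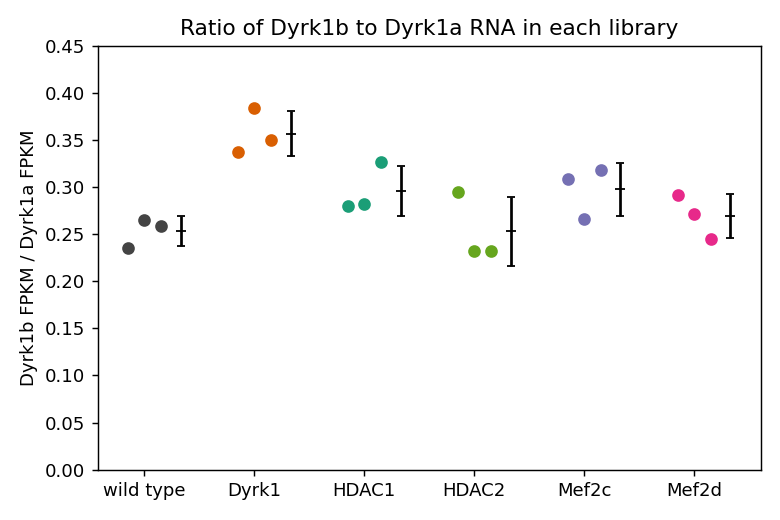
Ratio of Dyrk1b to Dyrk1a FPKM (y axis, from 0) in each library (points), by labelled group, with the mean and SD (black). The 3 Dyrk1-labelled libraries lie at 0.337 to 0.384 and the wild-type libraries at 0.235 to 0.265.

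Dyrk2 was higher in the HDAC2-, Mef2c- and Mef2d-labelled libraries than in wild type and overlapped wild type in the Dyrk1-labelled libraries, where it was not called (log2 0.16, SE 0.09, limma adjusted p 0.222). DYRK2 is a kinase that scaffolds a ubiquitin ligase and phosphorylates p53 and NFAT (chromosome 10, 118855603 to 118870209, ENSMUSG00000028630). Wild-type levels were 31.84, 29.78 and 27.79 FPKM, and Dyrk1-labelled levels 31.49, 32.37 and 36.46. Mef2d-labelled libraries had 41.66, 44.57 and 37 FPKM, all above wild type, with a log2 difference of 0.45 (SE 0.09, limma adjusted p 0.00343). In the HDAC2-labelled libraries Dyrk2 was at 39.48, 42.24 and 35.21 FPKM, a log2 difference of 0.37 (SE 0.09, limma adjusted p 0.00793). The Mef2c-labelled libraries, at 38.21, 38.24 and 34.4 FPKM, gave 0.30 (SE 0.09, limma adjusted p 0.0269). HDAC1-labelled libraries lay above wild type without overlap, at 33.31 to 38.22 FPKM, but missed the threshold at a log2 difference of 0.26 (SE 0.09, limma adjusted p 0.0664). The HDAC2 and Mef2d calls were kept in 16 of 16 alternatives, down to log2 0.22 and 0.30 with length and GC trends removed. The Mef2c call was lost in 7, at log2 0.17 and adjusted p 0.0949 with those trends removed. Against the other 4 deletion groups, Dyrk2 in Dyrk1-labelled libraries differed by -0.19 (SE 0.07, limma adjusted p 0.0708), and by -0.17 with those trends removed, which passed at 0.0306. For Dyrk2 the trends were taken at its longest transcript of 6129 bases, not at the 2137 bases behind its deposited values. Removal at that shorter length was not tested.

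Dyrk3 and Dyrk4, a regulator of stress granule and condensate dissolution and a kinase best known from testis, were too low to test. Dyrk3 (chromosome 1, 131127455 to 131138340) had 4 to 38 recovered reads per library and Dyrk4 (chromosome 6, 126876020 to 126921839) 4 to 19. Summed over a group, Dyrk3 had 80 reads in wild type, 1.36 per M reads of depth (exact 95% Poisson interval 1.08 to 1.69), and 40 in Mef2d-labelled libraries, 0.683 per M reads (0.488 to 0.929). For Dyrk4 the sums were 23 reads in wild type, 0.39 per M reads (0.247 to 0.585), and 48 in Mef2d-labelled libraries, 0.819 per M reads (0.604 to 1.09). These intervals cover counting error only. In a limma fit of all 23799 genes above 0, neither gene passed in any of the 8 comparisons, with adjusted p of 0.0688 or more.

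Hipk1 was the member most evenly separated from wild type. HIPK1 is a nuclear kinase that acts on homeodomain factors and on p53 partners (chromosome 3, 103739815 to 103791563, ENSMUSG00000008730). Its levels were 23.29, 23 and 22.19 FPKM in wild type, while the 15 deletion-labelled libraries ran from 26.42 to 35.99, so that every one of those was above every wild-type library. That pattern held for 1 of the 6 tested members and for 5.7% of all 12223 genes tested. The reverse, all 3 wild-type libraries above all 15 others, held for 0 members and 1.63% of genes. The 5 comparisons share the 3 wild-type libraries and are not independent. Their log2 differences were 0.34 for the Dyrk1 label (SE 0.09, limma adjusted p 0.0236), 0.30 for HDAC1 (adjusted p 0.0477), 0.47 for HDAC2 (adjusted p 0.00371), 0.46 for Mef2c (adjusted p 0.00344) and 0.51 for Mef2d (adjusted p 0.00232), with the same SE.

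The fitted trend on transcript length and GC stood at a mean of -0.17 for Hipk1 in wild type, and between -0.01 and 0.06 elsewhere. With it removed, the Hipk1 differences were 0.15 for Dyrk1 (adjusted p 0.153), 0.06 for HDAC1 (adjusted p 0.543), 0.25 for HDAC2 (adjusted p 0.0145), 0.30 for both Mef2c and Mef2d. So the HDAC2, Mef2c and Mef2d calls were kept, in 16 of 16 alternatives each, and the Dyrk1 and HDAC1 calls were not. The Dyrk1 call was lost in 5 of 16 alternatives and the HDAC1 call in 12, which include leaving out any 1 of its 6 libraries.

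Hipk2 had its highest levels in the HDAC1-labelled libraries. HIPK2 phosphorylates p53 on a site tied to apoptosis and binds corepressors (chromosome 6, 38694390 to 38876165, ENSMUSG00000061436). It was at 10.96, 9.429 and 10.28 FPKM there and at 6.464, 6.738 and 6.128 in wild type, without overlap. The log2 difference was 0.59 (SE 0.14, limma adjusted p 0.0167), and 0.39 with length and GC trends removed (adjusted p 0.0364). Leaving out wild-type replicate 3 (log2 0.56) or HDAC1 replicate 1 (log2 0.54) ended this call. HDAC2-labelled libraries, at 8.989, 8.993 and 8.054 FPKM, also lay above wild type without overlap but missed the threshold (log2 0.38, SE 0.14, adjusted p 0.0624). HDAC1 against HDAC2 differed by 0.21 (SE 0.14, limma adjusted p 0.578), with a 95% interval of -0.09 to 0.52.

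Among the tested members, Hipk2 had the highest spread relative to its mean within a group. Dyrk1-labelled libraries had 6.793, 7.047 and 10.71 FPKM, the highest in replicate 3. Mef2c-labelled libraries had 7.669, 5.628 and 5.006 FPKM and reached below wild type. The Mef2c difference from wild type was -0.09 (SE 0.14, adjusted p 0.716). Mef2d-labelled libraries, at 8.099, 7.824 and 8.387 FPKM, lay above all 3 Mef2c ones, and that difference of -0.38 (Mef2c minus Mef2d, SE 0.14) did not pass by limma (adjusted p 0.241).

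Hipk3 rose with 3 labels, and in none of them did the call outlast removal of length and GC trends. HIPK3 is a kinase linked to stress signalling and steroidogenic regulation (chromosome 2, 104426481 to 104494446, ENSMUSG00000027177). Levels were 19.17, 18.03 and 15.62 FPKM in wild type, 21.85, 20.2 and 26.01 with the Dyrk1 label, 22.09, 22.97 and 20.13 with HDAC2, and 21.87, 22.62 and 20.99 with Mef2d. These 3 groups did not overlap wild type. The log2 differences were 0.35 (SE 0.10, limma adjusted p 0.0247), 0.29 (adjusted p 0.0382) and 0.30 (adjusted p 0.0386). They became 0.15 (adjusted p 0.141), 0.08 (adjusted p 0.419) and 0.10 (adjusted p 0.341) with those trends removed. HDAC1- and Mef2c-labelled libraries overlapped wild type, and their differences of 0.18 and 0.23 did not pass.

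**Figure D3:**
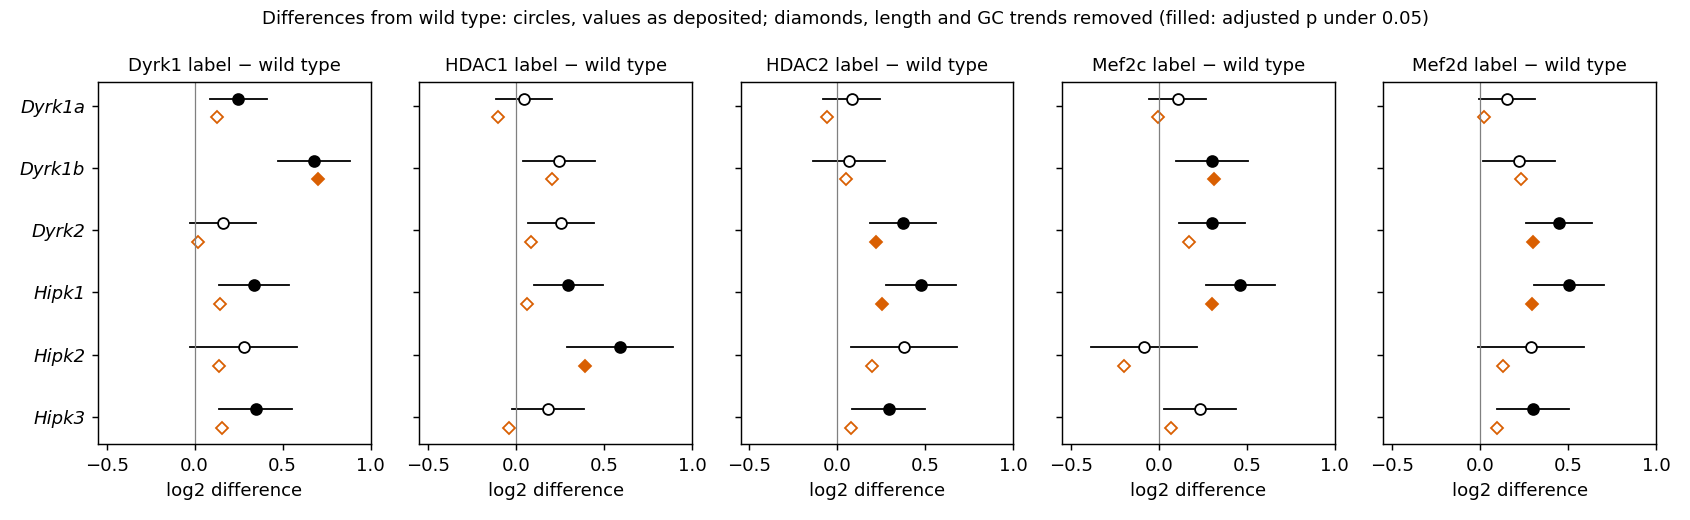
Log2 difference of each tested kinase from wild type (x axis, log2(FPKM + 1) scale) for the 5 labels, as circles with 95% intervals, and with length and GC trends taken out as orange diamonds; filled symbols passed at an adjusted p under 0.05. Dyrk1b with the Dyrk1 label lies at 0.68 and 0.70 in both readings, while Hipk1 with HDAC1 falls from 0.30 to 0.06.

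Counted over the 6 tested members, 4 rose with the Dyrk1 label, where 11.1% of all genes tested were called higher. With HDAC1 2 rose (10.2% of all genes higher), with HDAC2 3 (16.1%), with Mef2c 3 (12.9%) and with Mef2d 3 (13.9%), and 0 fell in any of these comparisons. Those 0 falls compare with 6.19%, 2.32%, 9.41%, 6.06% and 7.95% of all genes called lower. Median log2 differences of the members were 0.31, 0.25, 0.33, 0.27 and 0.30 in that order, beside medians of 0.02 to 0.05 over all genes. The counts moved with the scaling. With length and GC trends removed 1, 1, 2, 2 and 2 members passed, and a median-of-ratios (RLE) scaling left 2, 1, 2, 1 and 2. Leaving out the 3 B cell marker-rich libraries gave 3, 1, 3, 1 and 2. Over all genes, calls with the Dyrk1 label were 1359 higher and 757 lower as deposited, 708 and 887 without those trends, and 1070 and 960 under RLE scaling. In that order the splits were 1250 and 283, 456 and 684, and 828 and 651 with HDAC1, and 1973 and 1150, 1176 and 1528, and 1430 and 1641 with HDAC2. They were 1581 and 741, 1054 and 1092, and 1106 and 1099 with Mef2c, and 1705 and 972, 954 and 1121, and 1274 and 1337 with Mef2d. Among the Dyrk1-labelled libraries, replicate 3 was the highest for all 6 tested members. Leaving it out kept 1 of the 4 calls, as did leaving out wild-type replicate 3, and leaving out wild-type replicate 2 kept 2.

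Comparisons between deletion groups are given with each count of members beside the share of all genes called. Against the mean of the other 4 deletion groups, 1 of 6 was called in the Dyrk1-labelled libraries, Dyrk1b, where 21.9% of all genes tested were called. Dyrk1a and Dyrk2 passed as well, making 3 of 6, with length and GC trends removed, where 24.3% of all genes were called. HDAC1 against HDAC2 called 0 of 6 members (1.5% of all genes, 1.06% higher in HDAC1) and Mef2c against Mef2d 0 of 6 (3.06% of all genes, 1.6% higher in Mef2c), at limma adjusted p of 0.44 and 0.241 or more. At an unadjusted p under 0.05, 0 and 1 of these were reached, the 1 being Hipk2. A moderated F test over the 6 groups passed for Dyrk1b (adjusted p 0.00101), Hipk1 (0.00458), Dyrk2 (0.00966) and Hipk2 (0.0125). It did not pass for Hipk3 (0.073) or Dyrk1a (0.12), and 38.6% of all genes passed it.

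Across the 18 libraries some members followed each other. Pearson correlations of log2(FPKM + 1) were 0.88 between Dyrk1a and Hipk3, 0.88 between Dyrk2 and Hipk1 and 0.81 between Hipk1 and Hipk3. The pair Dyrk1b and Dyrk2 had 0.09. Libraries share depth, length trends and group, so these are descriptions with no test. The genes most like Dyrk1a were Zfp91 (r = 0.948), Yme1l1 (0.902) and Stag2 (0.883), and those most like Dyrk1b were Far1 (0.923), Ctcf (0.867) and Pds5b (0.848). For Dyrk2 they were Nck1 (0.938), Tcf20 (0.928) and Ablim1 (0.921), and for Hipk1 Lpin2 (0.95), Nr3c1 (0.93) and Wipf1 (0.928). Hipk2 was closest to Vasn (0.895), Ago2 (0.893) and Gse1 (0.878), and Hipk3 to Pdpk1 (0.936), Mbnl1 (0.935) and Ddx6 (0.933). All of these are over 18 libraries and 12223 genes.

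Substrates and partners of DYRK1 kinases were examined next, as a list of 18 genes, all tested. In the Dyrk1-labelled libraries 6 rose, 0 fell and 12 did not pass, with a median log2 difference of 0.15 (0.02 over all genes). With this label 11.1% of all genes were higher and 6.19% lower, shares that also stand beside its counts in the lists that follow. Nfatc1, an NFAT factor, was at 56.9, 61.84 and 73.97 FPKM against 48.81, 50.01 and 46.25 in wild type, without overlap (log2 0.40, SE 0.08, limma adjusted p 0.00563). The deacetylase gene Sirt1 rose from 7.458 ± 0.608 to 10.83 ± 1.89 FPKM (log2 0.47, SE 0.10), the ubiquitin ligase gene Rnf169 by 0.36 (SE 0.10) and the repressor gene Rest by 0.41 (SE 0.11). Rest and Sirt1 also passed in the other 4 comparisons with wild type, at 0.41 to 0.54 and 0.42 to 0.48, and the Mef2c call of Rest was lost with length and GC trends removed (adjusted p 0.0548). Nfatc1 also passed with HDAC1 (0.27, limma adjusted p 0.0409), and Rnf169 with HDAC1 (0.32) and HDAC2 (0.33). Those calls of Nfatc1 and Rnf169 were lost with length and GC trends removed (0.13 to 0.17). With length and GC trends removed 2 of the 18 passed with the Dyrk1 label, Nfatc1 (0.33) and Sirt1 (0.37). The scaffold gene Dcaf7, whose protein binds DYRK1 kinases, was at 35.73, 34.3 and 48.79 FPKM with the Dyrk1 label and 37.29, 32.01 and 31.67 in wild type, overlapping. Leaving out the B cell marker-rich libraries gave 5 higher and 0 lower. Against the other 4 deletion groups 1 of the 18 was higher in Dyrk1-labelled libraries and 0 were lower, where 9.55% and 12.4% of all genes were. That gene was Ccnd3 (0.15, limma adjusted p 0.0173), and Nfatc1 (0.18) missed the threshold at 0.0573. With length and GC trends removed 4 were higher there and 0 lower, Nfatc1 (0.19) among them. Against wild type, 4 rose and 0 fell with HDAC1, 3 and 0 with HDAC2, 2 and 1 with Mef2c, and 2 and 1 with Mef2d. The fall was that of the cyclin D3 gene Ccnd3 with both Mef2c and Mef2d. These counts became, without the length and GC trends, 2 and 4 for HDAC1, 2 and 1 for HDAC2, 1 and 1 for Mef2c, and 2 and 1 for Mef2d. Of all genes, 10.2% were higher and 2.32% lower with HDAC1, and 16.1% and 9.41% with HDAC2. With Mef2c the shares were 12.9% and 6.06%, and with Mef2d 13.9% and 7.95%. They also stand beside the counts of those labels in the lists that follow. Calls over all genes with trends removed or RLE scaling are given above, beside the member counts.

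MuvB and DREAM genes were examined as a list of 11. DREAM is the complex of MuvB with E2F and p130 or p107 that represses cell cycle genes in quiescent cells, and its assembly is promoted by DYRK1A acting on LIN52. Of 11 genes 3 rose, 0 fell and 8 did not pass with the Dyrk1 label (median log2 0.18, 0.02 over all genes). Rbl1, which encodes p107, was at 26.09, 26.21 and 27.13 FPKM against 18.29, 17.19 and 17.61 in wild type (log2 0.56, SE 0.06, limma adjusted p 7.98e-05). Its 3 Dyrk1-labelled values were above all 15 others, which ended at 22.13 FPKM. The share of all genes with that pattern was not computed. The MuvB subunit genes Lin9 (5.577 ± 0.478 to 8.297 ± 0.577 FPKM, log2 0.50, SE 0.10) and Lin54 (5.484 ± 0.223 to 7.196 ± 0.43 FPKM, log2 0.34, SE 0.09) rose as well. With length and GC trends removed Rbl1 (0.43) and Lin9 (0.45) passed, and Lin54 did not (0.22, adjusted p 0.0844). Lin52 itself was at 5.99, 6.384 and 4.333 FPKM with the Dyrk1 label and 4.547, 4.666 and 4.78 in wild type, overlapping.

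Against the other 4 deletion groups, 5 of these 11 genes were higher and 2 lower in Dyrk1-labelled libraries, where 9.55% and 12.4% of all genes were. Rbl1 differed by 0.43 (SE 0.05, limma adjusted p 2.5e-05), Lin54 by 0.40 (SE 0.07) and Lin9 by 0.39 (SE 0.08). The others called higher, Rbbp4 (0.23) and Tfdp1 (0.36), lay near wild type with the Dyrk1 label (log2 -0.01 and -0.02). Both were called lower than wild type with HDAC2, Mef2c and Mef2d. The p130 gene Rbl2 went the other way, at 32.16 ± 4.29 FPKM against a mean of 44.55 in the other 4 groups (log2 -0.44, SE 0.06, adjusted p 0.000166). So did E2f5, at 3.975 ± 1.44 FPKM against 5.972 (log2 -0.52, SE 0.14, limma adjusted p 0.0134). Rbl2 had risen from 28.0 ± 1.23 FPKM in wild type to 55.57 ± 2.71 with Mef2c, 49.73 ± 3.63 with Mef2d, 36.72 ± 1.90 with HDAC2 and 36.16 ± 0.684 with HDAC1.

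For DYRK2, DYRK3 and DYRK4 partners, 2 of 12 rose and 1 fell with the Dyrk1 label (median log2 -0.05). The mTORC1 inhibitor gene Akt1s1, whose product PRAS40 is a DYRK3 substrate, fell from 18.04 ± 0.464 to 13.57 ± 2.61 FPKM (log2 -0.40, SE 0.10, limma adjusted p 0.0171). Carhsp1, encoding an RNA-binding phosphoprotein, rose from 10.67 ± 1.74 to 14.17 ± 1.68 FPKM (log2 0.38, SE 0.11). With length and GC trends removed 1 of the 12 rose and 1 fell. With the other labels 1 rose and 1 fell for HDAC1, 1 and 3 for HDAC2, 0 and 0 for Mef2c, and 1 and 2 for Mef2d. The shares of all genes given above for each label stand beside these. For Mef2c 3 of the 12 had an unadjusted limma p under 0.05, among them the proteasome ATPase gene Psmc4 (log2 -0.26, limma adjusted p 0.102).

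HIPK partners moved in both directions. With the Dyrk1 label 5 of 19 tested genes rose, 3 fell and 11 did not pass, with a median log2 difference of -0.02. With length and GC trends removed 2 rose and 3 fell. The p53-induced gene Trp53inp1, whose product works with HIPK2 on p53, was at 91.27, 98.46 and 112.2 FPKM against 61.61, 65.54 and 52.31 in wild type (log2 0.74, SE 0.08, limma adjusted p 0.000109). All 3 were above the other 15 libraries, a pattern whose share of all genes was not computed. The acetyltransferase gene Ep300 rose from 20.14 ± 1.61 to 29.49 ± 4.0 FPKM (log2 0.52, SE 0.11, and 0.34 with those trends removed, which passed). As deposited, Ep300 also passed in the other 4 comparisons with wild type, at 0.36 to 0.50. Against the other 4 deletion groups it differed by 0.10 in Dyrk1-labelled libraries and did not pass (limma adjusted p 0.419). Lef1, a Wnt pathway factor, fell from 66.77 ± 1.82 to 48.95 ± 5.72 FPKM (log2 -0.45, SE 0.08), and Nlk, a kinase of that pathway, from 15.41 ± 1.09 to 12.66 ± 0.293 FPKM (log2 -0.26, SE 0.07). Lef1 was also called lower with Mef2c (-0.35, SE 0.08). In Dyrk1-labelled libraries Lef1 differed from the other 4 deletion groups by -0.25 (SE 0.07, limma adjusted p 0.0131). Nlk rose with HDAC2 (0.20), Mef2c (0.25) and Mef2d (0.38), of which the HDAC2 (0.11) and Mef2c (0.16) calls were lost with length and GC trends removed, and Dyrk1-labelled libraries differed from the other 4 groups by -0.48 (SE 0.05, limma adjusted p 1.94e-05). The Groucho corepressor gene Tle1 had the largest change of the list, from 3.53 ± 0.419 FPKM in wild type to 0.8463 ± 0.0484 with Mef2c (log2 -1.29, SE 0.08, limma adjusted p 7.64e-08) and 0.6455 ± 0.0617 with Mef2d (log2 -1.46, SE 0.08, limma adjusted p 2.71e-08). Beside the shares of all genes given above for each label, counts were 2 up and 0 down with HDAC1, 7 and 2 with HDAC2, 4 and 4 with Mef2c, and 6 and 2 with Mef2d. They became 0 and 2, 1 and 3, 2 and 4, and 2 and 1 with length and GC trends removed, and 1 and 1, 2 and 5, 0 and 4, and 6 and 2 under RLE scaling.

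Of the related CMGC kinases 10 were tested. With the Dyrk1 label 1 of 10 rose and 0 fell, and 0 rose and 2 fell with length and GC trends removed. Against wild type 1 rose with HDAC1, 2 with HDAC2, 3 with Mef2c and 2 with Mef2d, and 0 fell. In that order, 0 rose and 1 fell, 1 and 0, 0 and 2, and 0 and 0 with those trends removed. The shares of all genes given above for each label stand beside these. Prpf4b, a splicing kinase close to the DYRK branch, rose with all 5 labels, from 28.88 ± 2.06 FPKM in wild type to group means of 34.5 to 36.26 (log2 0.25 to 0.32), and passed in none of the 5 with length and GC trends removed (0.03 to 0.09). It was the only one of 10 tested to pass with the Dyrk1 label and with HDAC1. The splicing kinase gene Clk1 rose with HDAC2, Mef2c and Mef2d, from 32.11 ± 5.21 to 49.15 to 50.41 FPKM, and the SR protein kinase gene Srpk2 with Mef2c, from 11.43 ± 0.734 to 14.2 ± 0.234 FPKM (log2 0.29, SE 0.07). Removing length and GC trends kept the Clk1 call with HDAC2, and ended those with Mef2c and Mef2d and that of Srpk2 (log2 0.13).

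**Figure D4:**
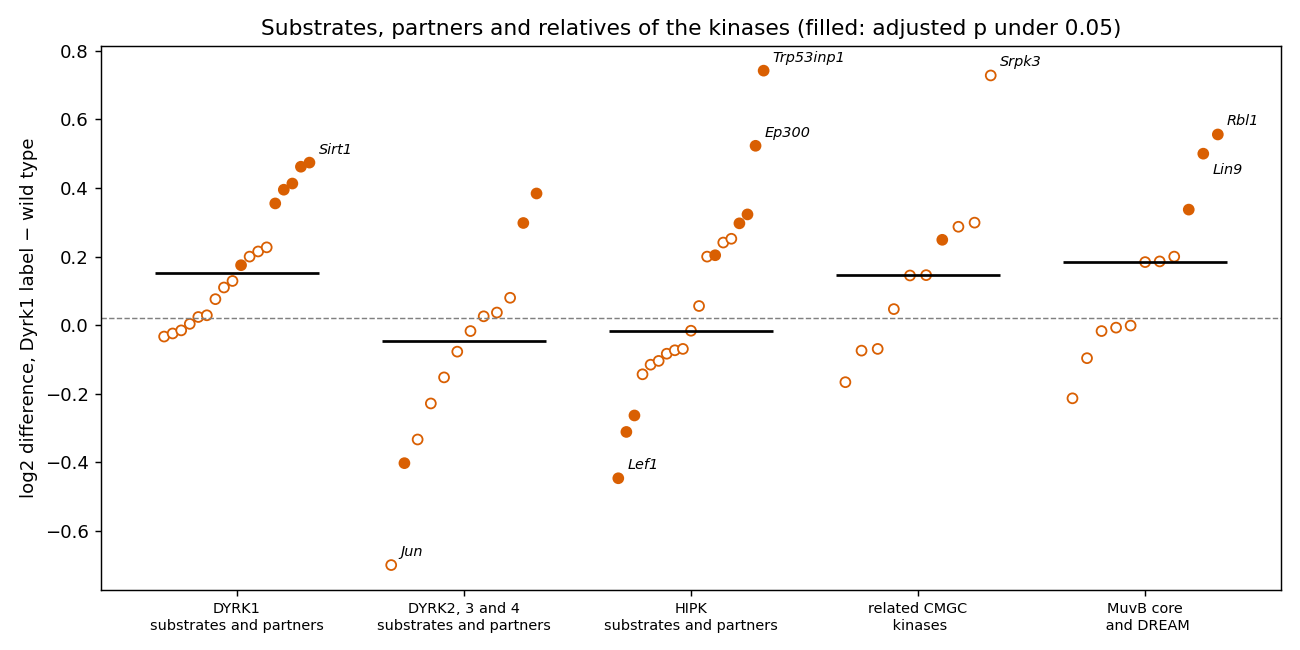
Log2 difference between Dyrk1-labelled and wild-type libraries (y axis) of each tested gene in 5 lists of substrates, partners and relatives of the kinases, ordered within a list; filled points passed at an adjusted p under 0.05, bars are list medians and the dashed line is the median of all genes tested, 0.02. Trp53inp1 at 0.74 and Rbl1 at 0.56 are the highest that passed, and Lef1 at -0.45 the lowest; Jun at -0.70 and Srpk3 at 0.73 did not pass.

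Genes next to both DYRK1 loci were examined for shared movement. Within 500 kb of Dyrk1b, 3 of 20 tested neighbours rose with the Dyrk1 label and 0 fell (median log2 0.03), where 11.1% and 6.19% of all genes did, namely the zinc finger genes Zfp60 (0.37, SE 0.08) and Zfp780b (0.51, SE 0.16) and the exchange factor gene Plekhg2 (0.30, SE 0.09). None of these 3 passed against the other 4 deletion groups (-0.01, 0.07 and 0.07). Of the 20, Timm50 was higher there (0.27, limma adjusted p 0.00993) and Eid2 lower (-0.43, limma adjusted p 0.0145), and no other passed. In that comparison 9.55% of all genes were higher and 12.4% lower. Within 500 kb of Dyrk1a, 0 of 4 tested neighbours passed against wild type by limma, with adjusted p of 0.0664 or more, and 2 of them had an unadjusted p under 0.05. Against the other 4 deletion groups 3 of these 4 were lower, where 12.4% of all genes were, Ttc3 (-0.33, adjusted p 0.000298), Hlcs (-0.31, adjusted p 0.000735) and the glycolipid anchor gene Pigp (-0.60, adjusted p 0.00278). Pigp was at 14.04, 14.55 and 8.324 FPKM in Dyrk1-labelled libraries and 16.21 to 22.11 in the other 15. Dyrk1a itself was not lower than in those groups.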

How the data were processed

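RNA was measured in 18 Treg libraries, 3 in each of 6 groups. The deposited table holds 1 value per gene and library, treated as FPKM made by the authors. The unit was read from the values, since no source used here names it. Per the submitters' processing notes, STAR, HTSeq and the mm10 build were used, with versions, annotation release and strand setting not given in the sources used here. FPKM times transcript length and a factor per library gave whole reads, within 0.03, for 64.4% of 10702 genes with the longest GENCODE M21 transcript. The 12223 of 35275 genes that reached 1 FPKM in 3 or more libraries were tested on log2(FPKM + 1) with limma 3.58.1 in R 4.3.3, using a variance trend, 1 mean per group, 12 residual degrees of freedom and Benjamini-Hochberg adjustment over all genes tested, at 0.05. Fold changes of low genes are understated on this scale. The test was checked on simulated data. The members, gene lists and tests were chosen with earlier results of these data known. Genes named are the members, the listed substrates and partners, neighbours within 500 kb of Dyrk1a and Dyrk1b, and, among the genes ranked, the 3 of highest correlation with each member. The values of 1 listed gene are not reported here. Alternatives were other pseudocounts (0.1 and 0.5), filters (none and 5 FPKM), RLE scaling, no variance trend, a replicate block, only the groups compared and each library left out. After seeing the data, 2 were added: removal of each library's loess trend (span 0.5) on the length and GC of the longest transcript, and leaving out 3 libraries rich in B cell markers. Overlapping genes, such as Hipk2 and Tbxas1 on opposite strands (762 bases), could share reads if strand was not used.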

Additional observations from a re-analysis of the deposited data

How the results depend on the processing

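Of the 16 member calls, 7 were kept in every alternative, namely Dyrk1b in both Dyrk1 comparisons, Dyrk2 with HDAC2 and Mef2d, and Hipk1 with HDAC2, Mef2c and Mef2d. For the others the cause of the loss was not tested. With 3 libraries against 3, an exact permutation test cannot go below 0.1. The count of members called with HDAC1 against wild type was 1 with no filter, RLE scaling, no variance trend, the replicate block, length and GC trends removed, or the B cell marker-rich libraries left out. With Dyrk1 it was 2 under RLE scaling, 1 with those trends removed and 1 with only the groups compared. With Mef2c it was 1 under RLE scaling and 1 after leaving out the marker-rich libraries, and Dyrk1 against the other 4 groups gave 3 with trends removed. Genes called between HDAC1 and HDAC2 were 80 at the 5 FPKM filter and 97 with only those groups. Only the groups compared gave 62 for Dyrk1 and 1355 for Mef2c, and leaving out the marker-rich libraries gave 1342 for Mef2c and 1474 for Mef2d.

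Leaving out 1 library at a time, genes called against wild type ranged from 1186 to 2595 for Dyrk1, 421 to 1721 for HDAC1, 1329 to 3284 for HDAC2, 1150 to 2428 for Mef2c and 1079 to 2814 for Mef2d. The lowest came without Dyrk1 replicate 3 for Dyrk1 and without wild-type replicate 3 for the other 4. The range was 54 to 210 for HDAC1 against HDAC2, 240 to 365 for Mef2c against Mef2d and 2237 to 2681 for Dyrk1 against the other 4 groups. Members called ranged from 1 to 4 for Dyrk1, 0 to 1 for HDAC1, 2 to 3 for HDAC2 and Mef2d, 1 to 2 for Mef2c, and 1 to 2 for Dyrk1 against the other 4 groups.

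Sign changes occurred among differences that were not called. With length and GC trends removed, Dyrk1a was -0.104 with HDAC1, -0.056 with HDAC2 and -0.005 with Mef2c, Hipk3 was -0.041 with HDAC1, Hipk1 was 0.005 in Mef2c against Mef2d, and Hipk2 was 0.01 in Dyrk1 against the other 4 groups. RLE scaling gave -0.01 for Dyrk1a with HDAC1 and 0.01 for Hipk2 in Dyrk1 against the other 4, which was 0.128 without the marker-rich libraries. Over single libraries left out, Hipk2 ran from -0.204 to 0.09 in that comparison and Hipk3 from -0.004 to 0.171, Dyrk1b with HDAC2 from -0.027 to 0.14, and Hipk2 with Mef2c from -0.238 to 0.027. In Mef2c against Mef2d, Hipk1 ran from -0.11 to 0.046, Dyrk1a from -0.121 to 0.015, Hipk3 from -0.13 to 0.002 and Dyrk1b from -0.016 to 0.136.

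The labels do not say whether replicate numbers pair the libraries. With group means taken out, the median correlation of same-numbered libraries was 0 over 45 pairs, 18 of them over 0.1. For different-numbered libraries it was -0.04 over 90 pairs, 26 of them over 0.1. Of 18 libraries, 6 correlated best with their own number. The 3 libraries rich in B cell markers all carry number 1. Whether a number marks a batch was not tested. The replicate block gave 1932 genes for Dyrk1, 1391 for HDAC1, 2867 for HDAC2, 2181 for Mef2c and 2485 for Mef2d, and ended the calls of Hipk1 with HDAC1 and Dyrk1b with Mef2c.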

Other observations

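Hipk4, the remaining HIPK gene, was at 0.01716 to 0.1718 FPKM over the 18 libraries and was not tested. The FPKM of the 8 kinases summed to 112.0 ± 6.07 in wild type and to group means of 132.2 to 143.7 with the 5 labels, a description that was not tested.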
